A study of Homo sapiens with 6 samples.

Results

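The study sequenced RNA of 2 established human cell lines, Jeko and Rec-1, which derive from mantle cell lymphoma, a cancer of B cells. In both lines the cells expressed Cas9 together with a tet-on vector that doxycycline switches on. The vector was empty in the controls and otherwise held a guide RNA (sgRNA) to NR4A1, which encodes a nuclear receptor, and all 6 cultures were given doxycycline for 48 h. Each line gave 3 libraries, an empty-vector control, NR4A1 sgRNA 1 and NR4A1 sgRNA 2, so that the control groups hold 1 library each and the sgRNA groups 2, with the guides standing in as replicates. The labels describe stable lines and do not say whether these were clones or pools. The RNAs described here are structural RNAs that cells make in quantity and that end without a poly(A) tail, taken from the deposited table by gene symbol from a list of 9. A row was found for 4 of them, RMRP, RPPH1, TERC and VTRNA1-1, among 25277 gene rows. RN7SK, RN7SL1, RN7SL2, SNORD3A and SNORD118 had no row under these symbols in the table used and were not analysed here.

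RMRP is the RNA of RNase MRP, an enzyme that cuts the precursor of ribosomal RNA, and RPPH1 is the RNA of RNase P, which trims the leader off precursor tRNAs. Both are made by RNA polymerase III from promoters that lie upstream of the gene, and both assemble with a largely shared set of protein subunits. TERC is the RNA that telomerase copies into telomere repeats; RNA polymerase II makes it, and its end is trimmed and protected by a box H/ACA particle. VTRNA1-1 is a short polymerase III RNA of the vault particle, with promoter elements inside the gene. Library kits that pull out RNA by oligo-dT keep molecules with a poly(A) tail, so the level of such RNAs in a library depends on how tails were selected as well as on the cells. The labels give total RNA and an Illumina TruSeq RNA kit, and do not say how tails were selected.

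The reference sequences are shown because the length and end of an RNA bear on its capture and on its FPKM. A poly(A) tail is added after transcription and appears in no genome sequence, so runs of A within the RNA are what an oligo-dT primer could otherwise bind. The sequences were read from the GRCh37 genome at the positions of the GENCODE genes, with the last 20 bases of RMRP in capitals, the bases that TERC uses as its template in capitals, and the motif GTTCGANNC, part of the internal B box, in capitals in VTRNA1-1.
RMRP transcript, chr9:35657751-35658014, minus strand: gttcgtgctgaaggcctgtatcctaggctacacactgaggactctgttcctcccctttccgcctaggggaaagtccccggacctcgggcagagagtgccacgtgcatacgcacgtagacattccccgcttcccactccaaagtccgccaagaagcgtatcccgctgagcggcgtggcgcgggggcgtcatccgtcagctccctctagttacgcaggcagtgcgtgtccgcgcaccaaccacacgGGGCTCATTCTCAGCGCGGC
TERC, first 100 bases, chr3:169482749-169482848, minus strand: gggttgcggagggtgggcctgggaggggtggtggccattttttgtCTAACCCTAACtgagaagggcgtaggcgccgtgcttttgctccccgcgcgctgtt
VTRNA1-1 transcript, chr5:140090860-140090958, plus strand: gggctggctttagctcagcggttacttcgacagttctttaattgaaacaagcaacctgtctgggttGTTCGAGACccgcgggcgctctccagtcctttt
RMRP, of 264 bases, holds 2 A among its last 20 bases and no run of A longer than 3. VTRNA1-1, of 99 bases, has 1 A among its last 20 and also no run longer than 3. In the GENCODE transcript of TERC, of 541 bases and longer than the 451 bases of RefSeq, the longest run of A is 6, and 6 of the last 20 bases are A. GTTCGANNC, searched on both strands, occurs in the first 99 bases of 0.375% of 250493 GENCODE transcripts.

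The 100 bases before the start of RMRP and of TERC are shown because one gene is read by polymerase III and the other by polymerase II, and both carry a TATA motif. Capitals mark TATAAA, which is on the other strand and so appears as TTTATA at TERC, and CCAAT at TERC.
RMRP upstream, chr9:35658015-35658114, minus strand: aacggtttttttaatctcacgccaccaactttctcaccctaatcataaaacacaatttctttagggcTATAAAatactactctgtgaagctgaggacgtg
TERC upstream, chr3:169482849-169482948, minus strand: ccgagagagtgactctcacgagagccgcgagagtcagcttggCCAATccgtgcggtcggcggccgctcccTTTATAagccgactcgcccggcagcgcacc
The TATA motif began 33 bases before the RMRP start and 30 bases before the TERC start, and CCAAT began 58 bases before the TERC start. Over the same 100 bases, searched on both strands, TATAAA was found in 4.992% and CCAAT in 18.06% of 35116 RefSeq promoters (GRCh38.p14). These matches are descriptions of the sequence and not measured sites. RMRP lies beside CCDC107, whose start is 272 bases away, and RPPH1 beside PARP2.

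Values are FPKM, fragments scaled by the authors for transcript length and library size. The summed FPKM lay between 905778 and 1160107 per library, and 15478 to 16150 genes were above 0. Libraries were compared over the 11400 genes that averaged 1 FPKM or more. Across these genes, which are not independent replicates, the library labelled Rec-1 control correlated at a Pearson r of 0.941 with the Jeko control. Its r was 0.757 with the library labelled Rec-1 sgRNA 1 and 0.762 with that labelled sgRNA 2, a pair that correlated at 0.932. CCND1, the cyclin that mantle cell lymphoma overexpresses, was at least 442 FPKM in all Jeko libraries and the Rec-1 control and at most 0.696 in both Rec-1 sgRNA libraries, while CD3D was 66.3 and 95.3 in those libraries and at most 0.438 in the other 4. Among B cell markers, CD79A was between 265 and 596 FPKM and MS4A1 between 26.4 and 132 over the 6 libraries. The 3 T cell markers (CD3D, CD3E, CD2) summed to at most 0.993 in 4 libraries but to 71.5 for Rec-1 sgRNA 1 and 101.1 for Rec-1 sgRNA 2, with CD2 at or near 0, and the 3 myeloid markers (CD14, LYZ, CSF1R) to at most 1.97. The label of the Rec-1 control, or those of both Rec-1 sgRNA libraries, may therefore be wrong, and the files do not settle which. Every comparison below that sets Rec-1 sgRNA against the Rec-1 control, and every difference between the lines, takes the labels as given; the part of these marker differences in them was not tested. Below, 3 values given for a line stand for its control, sgRNA 1 and sgRNA 2 in that order. NR4A1 itself ran 5.99, 3.89, 4.44 FPKM in Jeko and 11.6, 27.4, 12.7 in the libraries labelled Rec-1. It was below the control with both guides in Jeko and above it with both in Rec-1 (log2 difference over both lines 0.10, limma adjusted p 0.882), and an RNA level does not show whether a gene was cut.

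RMRP was far higher in every sgRNA library than in either control. In Jeko it stood at 74.6 FPKM with the empty vector, 2302 with sgRNA 1 and 1422 with sgRNA 2. In the libraries labelled Rec-1 it stood at 173 with the empty vector, 2529 with sgRNA 1 and 6494 with sgRNA 2. The sgRNA and control libraries did not overlap, and the lowest sgRNA value was 8.19-fold above the higher control. Against the control of its own line RMRP was 30.8-fold and 19.0-fold higher in Jeko sgRNA 1 and 2, and 14.6-fold and 37.4-fold higher in Rec-1 sgRNA 1 and 2. The spread within groups was smaller: the guides differed by 1.62-fold in Jeko and 2.57-fold in Rec-1, and the controls by 2.32-fold. In order from lowest to highest the libraries ran Jeko control, Rec-1 control, Jeko sgRNA 2, Jeko sgRNA 1, Rec-1 sgRNA 1 and Rec-1 sgRNA 2. Jeko sgRNA 1 and Rec-1 sgRNA 1, neighbours in that order, differed by less than the guides did within either line. In bulk libraries fewer cells that make an RNA and less of it per cell cannot be told apart.

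**Figure D1:**
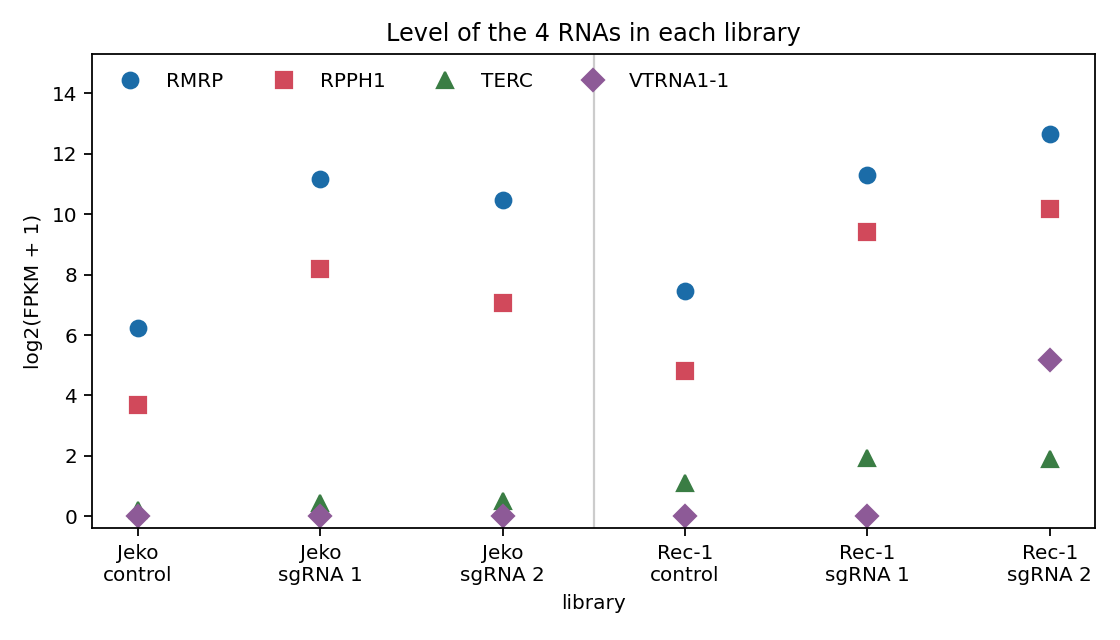
Level of RMRP, RPPH1, TERC and VTRNA1-1 in each of the 6 libraries as log2(FPKM + 1), 1 point per gene and library, with the lines separated by a grey rule. RMRP and RPPH1 lie above both controls in all 4 sgRNA libraries, and VTRNA1-1 is above 0 only in Rec-1 sgRNA 2. TERC, which rests on few fragments where these could be read, differs more between the lines than with the sgRNA.

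RPPH1 put the libraries in the same order. In Jeko it ran 11.8, 289, 131 FPKM and in Rec-1 27.0, 682, 1145. Again no sgRNA library overlapped a control, and the lowest of them was 4.86-fold above the higher control. Against the empty vector of its line it was higher by 24.6-fold and 11.1-fold with Jeko sgRNA 1 and 2, and by 25.3-fold and 42.4-fold with Rec-1 sgRNA 1 and 2. The guides differed by 2.21-fold in Jeko and 1.68-fold in Rec-1, and the controls by 2.29-fold. The ratio of RMRP to RPPH1 FPKM ran 6.34, 7.96, 10.8 in Jeko and 6.43, 3.71, 5.67 in Rec-1. Each RNA thus differed from its control by over 10-fold in every sgRNA library, while the ratio between them stayed within 3.71 to 10.8, above the controls in Jeko and below them in Rec-1.

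TERC was scarce and showed another order. In Jeko it ran 0.157, 0.359, 0.426 FPKM and in Rec-1 1.14, 2.84, 2.73. Each sgRNA library was above its own control, by 2.29-fold and 2.72-fold in Jeko and by 2.49-fold and 2.40-fold in Rec-1. The groups overlapped across lines, since the Rec-1 control exceeded both Jeko sgRNA libraries. The controls differed by 7.27-fold, more than any library differed from its own control, but this fold rests on few fragments, as given below.

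VTRNA1-1 was listed at 0 in 5 libraries and at 34.7 FPKM in Rec-1 sgRNA 2. A value of 0 in this table can be a failed estimate: EEF1A1, one of the most abundant mRNAs of any cell, is listed at 0 in all 6 libraries. The value of 34.7 is the smallest step, the worth of 1 fragment. SNORD46, which has the same RefSeq length of 98 bases, takes steps of 34.7 FPKM in that library, and MIR623, also of 98 bases, is listed at the identical value. VTRNA1-1 is therefore given no fold change or test here.

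The fragments behind the other values could be read from the table because a gene's FPKM values are whole multiples of what 1 fragment is worth. Among genes under 0.05 FPKM in the Jeko control and in another library, 29.8% to 33.5% shared 1 ratio, taken as the ratio of what 1 fragment is worth. With the Jeko control as 1, depth was then 0.872 in Jeko sgRNA 1, 1.10 in Jeko sgRNA 2 and the Rec-1 control alike, and 0.687 in Rec-1 sgRNA 2. For Rec-1 sgRNA 1 the commonest ratio was shared by 2 of 562 genes, and no fragments are given for it. The smallest set of whole numbers that fits a gene's values in the other 5 libraries within 0.03 fragments was found for 72 of 79 small RNAs above 0 in all of them (91.1%). True numbers could be multiples of these, and where fragments were divided between overlapping features the unit could be part of a fragment.

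RMRP rested on 140, 3767 and 2940 fragments in Jeko, 358 in the Rec-1 control and 8368 in Rec-1 sgRNA 2. Exact Poisson 95% intervals, which cover counting error only, were 118 to 165 for the Jeko control, 322 to 397 for the Rec-1 control and 2835 to 3048 for the lowest sgRNA library, so counting error is small beside the difference. RPPH1 had 42, 901, 516, 106 and 2809 fragments in the same libraries, with intervals of 86.8 to 128 for the Rec-1 control and 472 to 563 for Jeko sgRNA 2. TERC had 1, 2, 3, 8 and 12 fragments, with intervals of 0.0253 to 5.57 for the Jeko control, 0.619 to 8.77 for Jeko sgRNA 2, 3.45 to 15.8 for the Rec-1 control and 6.20 to 21.0 for Rec-1 sgRNA 2. Scaled back to FPKM, the Rec-1 intervals were 0.491 to 2.24 in the control and 1.41 to 4.78 in sgRNA 2. The intervals of control and sgRNA libraries overlapped within each line where they could be computed. Those of the Jeko and Rec-1 controls overlapped too, at 0.00396 to 0.872 and 0.491 to 2.24 FPKM. Few fragments limit the precision of the TERC folds, that between the controls included. In fragments RMRP exceeded RPPH1 by 3.33-fold and 3.38-fold in the Jeko and Rec-1 controls, 4.18-fold and 5.70-fold with Jeko sgRNA 1 and 2, and 2.98-fold with Rec-1 sgRNA 2.

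**Figure D2:**
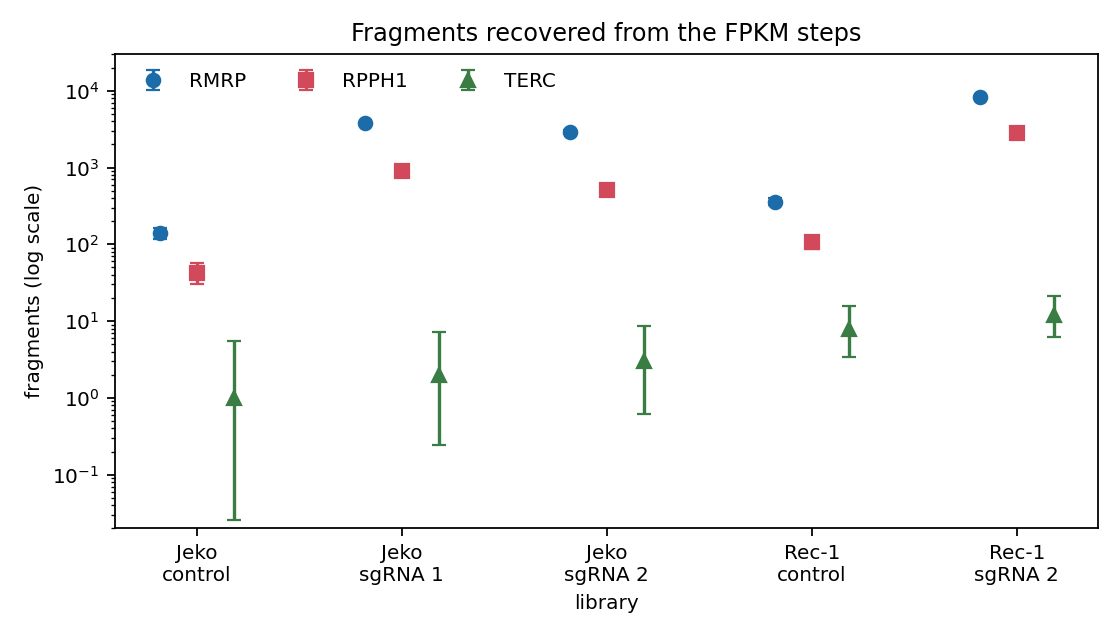
Fragments recovered for RMRP, RPPH1 and TERC in the 5 libraries where 1 fragment has a known worth, on a log axis, with bars for exact Poisson 95% intervals. RMRP spans 140 to 8368 fragments, RPPH1 42 to 2809, and the TERC bars of a control and the sgRNA libraries of its line overlap.

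Levels of different RNAs in this table cannot be set against each other, even though FPKM is per length, because 1 fragment was worth far more FPKM in a shorter RNA. In Rec-1 sgRNA 2 it was worth 34.7 FPKM for VTRNA1-1 (98 bases in RefSeq), 0.776 for RMRP (270 bases), 0.408 for RPPH1 (341 bases) and 0.228 for TERC (451 bases). Folds of 1 gene between the 5 libraries with a known worth are not touched by this, since its length is the same in each. For Rec-1 sgRNA 1 no such worth was found, and whether it was quantified like the others is not known, which bears on its folds of 14.6 for RMRP and 25.3 for RPPH1 and on its RMRP to RPPH1 ratio of 3.71.

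**Figure D3:**
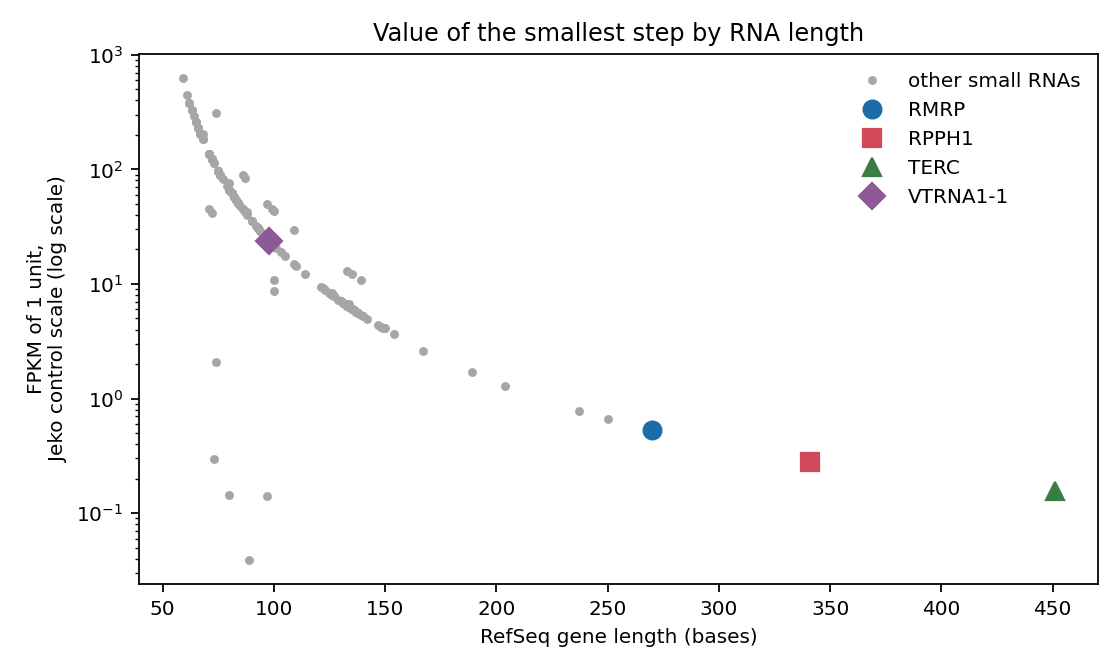
FPKM of the smallest step of each small RNA, on the scale of the Jeko control and a log axis, against its RefSeq length in bases. Grey points are other small RNAs above 0 in at least 2 libraries; the step falls steeply with length, from VTRNA1-1 at 98 bases to TERC at 451 bases.

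Across both lines RMRP and RPPH1 rose with the sgRNA, and TERC did not pass the test. The 4 sgRNA libraries were compared with the 2 controls by limma on log2(FPKM + 1) with the line as covariate, and an adjusted p (Benjamini-Hochberg over 11400 genes) under 0.05 was called. RMRP differed by 4.56 (SE 0.42, limma adjusted p 0.0304) and RPPH1 by 4.46 (SE 0.45, limma adjusted p 0.0388), both higher in 4 of 4 sgRNA libraries. TERC differed by 0.55 (SE 0.29, limma adjusted p 0.303). Of the 11400 genes 28 were called, or 0.246%, 21 of them higher and 7 lower, and 2410 had an unadjusted p under 0.05. A further description needs no model: RMRP and RPPH1 were at least 2-fold higher than their own-line control in all 4 sgRNA libraries, as were 99 of the genes tested (0.868%), and every sgRNA library was above both controls, as for 1943 genes (17%). TERC met neither. The 2-fold count used the log2(FPKM + 1) scale, which understates changes of low genes, and the FPKM of TERC were over 2-fold above the own-line control in all 4. The count above both controls compared FPKM, and for TERC the Rec-1 control exceeded both Jeko sgRNA libraries. Over the range of alternatives tried, the limma adjusted p ran from 0.0144 to 0.224 for RMRP and from 0.0148 to 0.272 for RPPH1. Without the Rec-1 control RMRP differed by 4.58 (limma adjusted p 0.224) and RPPH1 by 3.94 (limma adjusted p 0.235), and without a filter on low values both calls were also lost (limma adjusted p 0.121 for RMRP, 0.129 for RPPH1).

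Within Jeko, where control and sgRNA libraries correlated at 0.916 and 0.914, the difference of RMRP was as large and those of RPPH1 and TERC were smaller. The spread in this comparison came from the guides of both lines, the libraries labelled Rec-1 sgRNA among them. RMRP was 4.58 higher on the log2 scale (SE 0.68, limma adjusted p 0.230) and RPPH1 3.94 higher (SE 0.62, limma adjusted p 0.245), and neither passed the threshold in this comparison of 2 libraries with 1. TERC was 0.27 higher (SE 0.16, limma adjusted p 0.545). The comparison called 50 genes (0.439%), 17 higher and 33 lower. RMRP and RPPH1 were among the 215 genes (1.89%) that were at least 2-fold higher in both Jeko sgRNA libraries than in the control.

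The sgRNA difference was then compared between the lines. For RMRP the difference in Rec-1 minus that in Jeko was -0.04 (SE 0.96, limma adjusted p 0.985), for RPPH1 1.04 (SE 0.87, limma adjusted p 0.549) and for TERC 0.56 (SE 0.22, limma adjusted p 0.254). None of the 3 was called, against 6.94% of all genes, and errors of this size leave room for differences of several fold between the lines. Rec-1 sgRNA was also compared with Jeko sgRNA directly, the only comparison with 2 libraries on each side. TERC was higher in Rec-1 by 1.44 (SE 0.13, limma adjusted p 0.00534) and RPPH1 by 2.18 (SE 0.50, limma adjusted p 0.0476), while RMRP differed by 1.16 (SE 0.55, limma adjusted p 0.193). This comparison called 2947 genes, or 25.9%, so calls in it were common. The counting intervals of TERC, up to 1.30 FPKM in Jeko sgRNA 1 and from 1.41 in Rec-1 sgRNA 2, did not overlap. The RPPH1 call was lost under 8 of 13 alternatives, among them leaving out any 1 of the 4 sgRNA libraries, with limma adjusted p over all alternatives from 0.0324 to 0.195.

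Scaled to polyadenylated mRNAs of the same library, RMRP and RPPH1 kept their separation of sgRNA from control. As a percentage of the geometric mean FPKM of 11 reference mRNAs, RMRP ran 11.2%, 329%, 251% in Jeko and 34.3%, 482%, 1262% in Rec-1. RPPH1 ran 1.76%, 41.4%, 23.2% in Jeko and 5.33%, 130.1%, 223% in Rec-1. TERC ran 0.0234%, 0.0513%, 0.0753% in Jeko and 0.225%, 0.541%, 0.532% in Rec-1. It was above the own-line control in each sgRNA library, with the groups overlapping across lines. Since 1 fragment is worth more FPKM in a shorter RNA, these percentages compare libraries and do not give amounts relative to the mRNAs. Of the references 12 were listed and 11 tested, limma called 0 with the sgRNA (1 higher and 1 lower at an unadjusted p under 0.05), and their median difference was -0.10, beside 0.01 over all genes tested. RPLP0, a ribosomal protein mRNA, was 5358 to 6457 FPKM in all 6 libraries, and GAPDH, a glycolytic enzyme mRNA, 3039 to 4662. The 4 structural RNAs together took 0.00839%, 0.223%, 0.136% of the summed FPKM in Jeko and 0.0184%, 0.355%, 0.781% in Rec-1.

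Other RNAs without a tail were taken from a list of 34, of which 15 had a row, 9 were listed at 0 in all libraries and 6 were tested. RNU11, the U11 RNA of the minor spliceosome, was the one called. It ran 6.07, 118, 82.6 FPKM in Jeko and 11.0, 88.8, 97.3 in Rec-1. The controls and the sgRNA libraries did not overlap. The log2 difference was 3.39 (SE 0.28, limma adjusted p 0.0249) in both lines together and 3.82 (SE 0.30, limma adjusted p 0.0466) in Jeko, with ranges of limma adjusted p over the alternatives of 0.00964 to 0.204 and 0.0392 to 0.367. RNU11 rested on few fragments: 1, 17 and 15 in Jeko, 2 in the Rec-1 control and 11 with Rec-1 sgRNA 2.

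The other minor spliceosome RNAs were sparser still. RNU4ATAC was listed at 0 in both controls and at 16.2, 6.41, 135 and 61.7 FPKM in Jeko sgRNA 1 and 2 and Rec-1 sgRNA 1 and 2 (2, 1 and 6 fragments in the 3 of these with a known worth), with no call in both lines together (limma adjusted p 0.133). RNU12 had 0, 2, 0, 1 and 7 fragments in the Jeko control, Jeko sgRNA 1 and 2, the Rec-1 control and Rec-1 sgRNA 2, and RNU6ATAC had 0, 2, 1, 1 and 1. BCYRN1, a neuronal polymerase III RNA, ran 3.26, 5.61, 1.48 FPKM in Jeko and 10.4, 11.7, 14.2 in Rec-1, which shows no separation of the groups. VTRNA2-1, once grouped with the vault RNAs, was listed at 0 in all 3 Jeko libraries and the Rec-1 control, and at 82.0 and 94.8 FPKM in Rec-1 sgRNA 1 and 2. Of the 6, RNU11 and RNU4ATAC were at least 2-fold higher in all 4 sgRNA libraries on the log2(FPKM + 1) scale, against 0.868% of all genes. RNU4ATAC passed the filter on low values through the sgRNA libraries alone. Against a control at 0, 1 fragment of it was enough for this count. No median is given for the 6, since a fitted difference against libraries at 0 depends on the pseudocount.

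Replication-dependent histone mRNAs, which end in a stem-loop in place of a tail, were also mostly higher in the Jeko sgRNA libraries. Of 72 listed 58 were tested, 43 of which were at least 2-fold higher in both Jeko sgRNA libraries than in the control, against 1.89% of all genes, and 16 were so in all 4 sgRNA libraries, against 0.868%. Their median level ran 2.99, 13.6, 13.6 FPKM in Jeko and 7.99, 14.02, 20.3 in Rec-1. Their summed level separated the groups in Jeko only, at 230, 1018, 1016 FPKM. The Rec-1 control, at 1728, exceeded Rec-1 sgRNA 1 and 2 at 927 and 1601. Much of that control sum came from HIST1H1C, at 763 FPKM, and HIST1H2BK, at 358.5. In Rec-1 sgRNA 1 and 2 HIST1H1C was at 26.3 and 33.6, and HIST1H2BK at 24.7 and 23.4. The sum without these genes was not computed. In both lines together limma called 0 of the 58 tested histone genes, at a median difference of 1.38. At an unadjusted limma p under 0.05, 30 were higher and 0 lower, a level that 2410 of all 11400 genes (21.1%) passed in either direction. In Jeko the median difference was 1.71, with 44 higher and 0 lower at that level, against 1287 of all genes (11.3%) in either direction. The other 14 listed genes were at 0 in every library (10) or under the filter (4). HIST1H1D, a linker histone, was the one called in Jeko, at 3.24, 24.9, 26.1 FPKM (log2 difference 2.64, SE 0.19, limma adjusted p 0.0346, range over the alternatives 0.0301 to 0.356). In Rec-1 it ran 9.01, 13.4, 13.0.

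**Figure D4:**
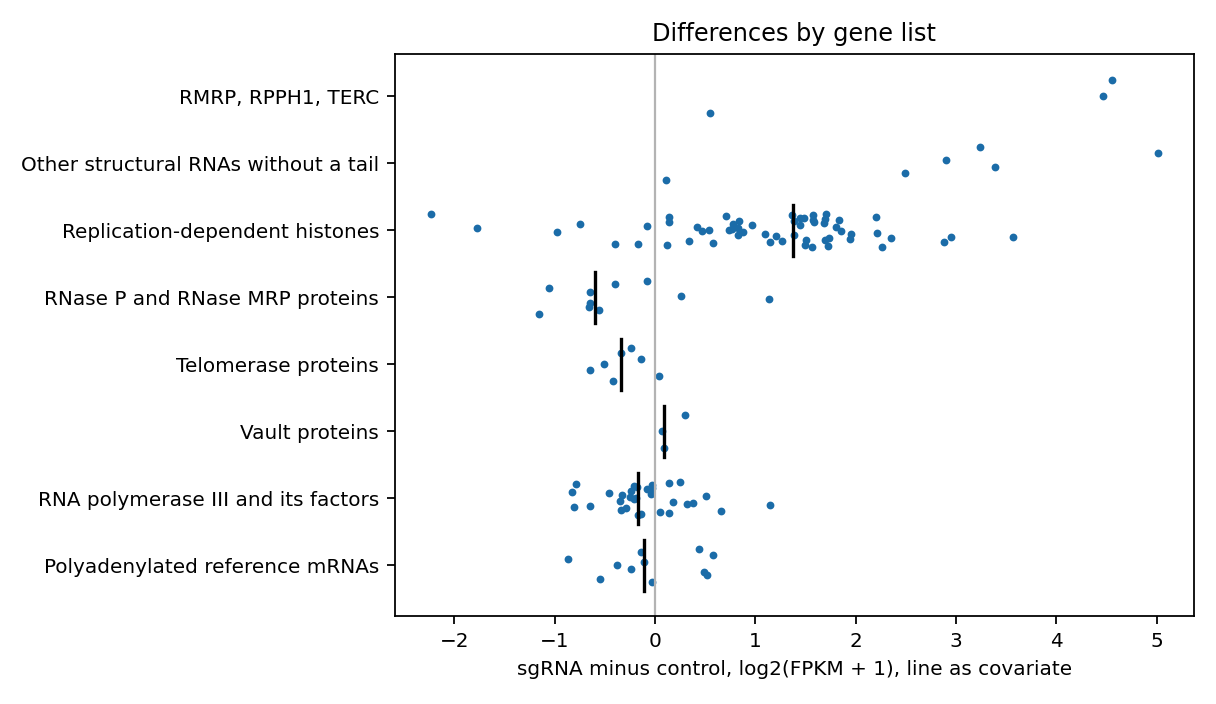
Difference of sgRNA minus control on the log2(FPKM + 1) scale, with the line as covariate, for each tested gene of 8 groups, 1 point per gene. Black bars mark group medians, and none is drawn for RMRP, RPPH1 and TERC or for the other structural RNAs; 2 of the 3 lie past 4, the other structural RNAs and the histones lie mostly right of 0, and the medians of the protein partners lie between -0.60 and 0.09.

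MALAT1 and NEAT1, long nuclear RNAs with forms that end without an ordinary tail, did not share the pattern. Which of their forms these libraries held, and how each was captured, was not tested. MALAT1 ran 17.8, 50.2, 34.7 FPKM in Jeko but 25.6, 18.8, 19.1 in Rec-1. NEAT1 ran 23.1, 11.2, 9.98 in Jeko and 44.9, 27.6, 22.8 in Rec-1, below the own-line control in 4 of 4 sgRNA libraries. No share over all genes was computed for that count. Neither MALAT1 nor NEAT1 was called with the sgRNA (limma adjusted p 0.570 and 0.169).

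The classes of small RNA that RefSeq names were added to this description after these values were seen. Small nucleolar RNAs guide modification of ribosomal RNA, and most are cut from introns without a tail. Of 353 rows of this class 171 were listed at 0 in all 6 libraries. A filter on the mean lets in RNAs with 1 fragment in an sgRNA library only, so those above 0 in both controls were counted instead, 86 in all. Of these 17 were at least 2-fold higher than the own-line control in all 4 sgRNA libraries and 7 at least 2-fold lower. In both Jeko sgRNA libraries 26 were so higher. Over all genes tested 0.868% were 2-fold higher in all 4 and 1.89% in both Jeko sgRNA libraries, and no share was computed for 2-fold lower. Their median level ran 50.4, 78.9, 59.5 FPKM in Jeko and 53.2, 125, 138 in Rec-1. Whole-number sets were found for 81, with a median of 2, 5 and 4 fragments in Jeko, 5 in the Rec-1 control and 4 in Rec-1 sgRNA 2. Summed over the 81, and not scaled for depth, there were 2571, 2062 and 1200 fragments in Jeko, 1518 in the Rec-1 control and 2384 in Rec-1 sgRNA 2. Beside medians of 2 to 5 fragments, these sums rest mostly on the more abundant of the 81. They did not separate the groups as the fragments of RMRP and RPPH1 did. Asking for a value above 0 in both controls leaves out RNAs seen in sgRNA libraries only, so the sums do not speak for the whole class. Of 24 microRNA genes above 0 in both controls, 0 were at least 2-fold higher in all 4 sgRNA libraries, 8 were at least 2-fold lower, and 1 was 2-fold higher in both Jeko sgRNA libraries. Whole-number sets were found for 20, with a median of 1.5, 1.5 and 1 fragments in Jeko, 2 in the Rec-1 control and 0 in Rec-1 sgRNA 2. Genes picked for being above 0 in the controls can look lower elsewhere at so few fragments.

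None of the protein partners of the structural RNAs was called with the sgRNA, in lists so short that a share of 0.246% over all genes gives few or no calls. Of the 11 proteins of RNase P and RNase MRP 10 were tested, and 0 were called in either direction by limma in both lines together or in Jeko; their median difference was -0.60, and -0.45 in Jeko, and at an unadjusted p under 0.05 in both lines together 0 were higher and 5 lower, and in Jeko 0 passed that level. Over all genes 21.1% passed it in both lines together and 11.3% in Jeko. POP7, a subunit that binds both RNAs, ran 87.2, 67.0, 53.4 FPKM in Jeko and 69.9, 53.0, 31.3 in Rec-1 (log2 difference -0.65, SE 0.27, limma adjusted p 0.246). POP5, also common to both enzymes, ran 62.3, 53.1, 41.1 in Jeko and 63.7, 22.3, 15.8 in Rec-1 (log2 difference -1.06, SE 0.36, limma adjusted p 0.206). Both were thus below their own control in 4 of 4 sgRNA libraries, without passing the test. No share over all genes was computed for this count, so it has no baseline here. Between the lines, Rec-1 sgRNA was lower than Jeko sgRNA for POP5 (log2 difference -1.27, limma adjusted p 0.0388) and higher for RPP25, another subunit, named after its value was seen (2.77, limma adjusted p 0.00425).

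The 7 telomerase proteins had 0 limma calls (0 higher and 1 lower at an unadjusted p under 0.05) and a median difference of -0.34. TERT, the catalytic subunit, lay between 2.24 and 3.51 FPKM in all 6 libraries. The 2 most abundant, NOP10 and NHP2, which hold box H/ACA RNAs, differed by -0.14 (SE 0.25) and -0.51 (SE 0.40). The 3 vault proteins had 0 limma calls (0 at an unadjusted p under 0.05, median 0.09); MVP, the shell of the vault, was 4.35 to 8.13 FPKM.

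Polymerase III itself was tested through 31 subunits and factors, with 0 limma calls in either comparison and a median difference of -0.17, and -0.11 in Jeko. At an unadjusted p under 0.05 2 were higher and 3 lower in both lines together. GTF3A, which binds 5S ribosomal RNA genes, differed by -0.35 (SE 0.24) and POLR1D, a subunit shared with polymerase I, by -0.04 (SE 0.17). For the RNAs without a row, partner proteins gave 0 limma calls as well. The 7 proteins of the 7SK particle and P-TEFb had a median difference of 0.04 (0 higher and 1 lower at an unadjusted p under 0.05), and MEPCE, which caps 7SK, differed by -0.66 (SE 0.17, limma adjusted p 0.177) and LARP7, which holds its end, by -0.26 (SE 0.25). The 8 proteins of the signal recognition particle and its receptor had a median of 0.26 (2 higher and 0 lower at that level), with SRP14 at -0.15 (SE 0.22) and SRP9 at 0.14 (SE 0.27). The 8 proteins of box C/D and U3 particles had a median of -0.28 (0 higher and 1 lower), with FBL, the methyltransferase, at -0.34 (SE 0.18) and NHP2L1 at 0.07 (SE 0.17).

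Genes next to the structural RNAs were not called with the sgRNA. CCDC107, which starts beside RMRP, ran 3.02, 1.28, 1.59 FPKM in Jeko and 2.95, 0.743, 0.925 in Rec-1, below the control in 4 of 4 sgRNA libraries without a call (log2 difference -0.92, SE 0.25, limma adjusted p 0.181). SIT1 near it was also below its control in all 4 (difference -0.59, limma adjusted p 0.208). A share over all genes was not computed for being below in all 4. PARP2, beside RPPH1, ran 33.4, 28.6, 22.8 in Jeko and 29.6, 21.4, 22.5 in Rec-1 (difference -0.40, limma adjusted p 0.262). MYNN, beside TERC, lay between 4.52 and 5.79 in all libraries. Whether counting used strand is not given in the sources used here, so reads of overlapping genes on both strands cannot be told apart.

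By their profile over the 6 libraries, the genes most like the mean of the 4 structural RNAs were TLE3, CD47, CDC27, SNORA52 and TMEM164, with Pearson r of 0.996, 0.993, 0.991, 0.991 and 0.987, among 117 of 11396 genes over 0.95. This mean holds the 1 fragment of VTRNA1-1. Without it, an alternative added after the values were seen, 0 of these 5 stayed among the first 5, which became SNORA4, CDK12, SCARNA6, RLF and ARHGAP12 (r of 0.995, 0.994, 0.991, 0.990 and 0.989). SNORA52, a box H/ACA small nucleolar RNA, came closest, at rank 7 with an r of 0.989; it ran 37.5, 208, 131 FPKM in Jeko and 56.9, 282, 628 in Rec-1. SCARNA6, a Cajal body RNA that also lacks a tail, ran 0.545, 13.1, 8.40 in Jeko and 0.991, 28.8, 56.3 in Rec-1. Protein-coding genes with such a profile moved far less: CDK12, a kinase of elongating polymerase II, ran 4.71, 8.51, 7.61 in Jeko and 5.46, 9.61, 10.2 in Rec-1. The libraries share lines and depth, and r is given as a description.

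The summed share of the 4 RNAs ran from lowest to highest as Jeko control, Rec-1 control, Jeko sgRNA 2, Jeko sgRNA 1, Rec-1 sgRNA 1 and Rec-1 sgRNA 2. This is the order of RMRP and RPPH1, since RMRP makes up most of it, and it does not stand for all RNA without a tail. RNU11 also separated sgRNA from control but was highest in Jeko sgRNA 1, at 118 FPKM. Its counting intervals overlapped among the sgRNA libraries with a known worth, so their order is not resolved. They were 69.0 to 190 FPKM in Jeko sgRNA 1, 46.2 to 136 in Jeko sgRNA 2 and 48.5 to 174 in Rec-1 sgRNA 2. The summed histone level was highest in the Rec-1 control, at 1728 FPKM, of which HIST1H1C gave 763 and HIST1H2BK 358.5. The summed FPKM that the share is taken of was 21.6% to 36.9% MIR6723 and MIR4461. Rec-1 sgRNA 2 had the lowest relative depth of the 5 libraries that could be scaled and the highest share, while the Rec-1 control and Jeko sgRNA 2 had the same relative depth and shares of 0.0184% and 0.136%. The amount and quality of the input RNA and the dates of library preparation were not analysed here. With 1 control per line, how a control library was prepared and what vector its cells carried cannot be told apart.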

How the data were processed

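The values analysed are FPKM, made by the authors and deposited as 1 table with 6 library columns, per the file headers. TopHat and hg19 are named in the submitters' processing notes; versions, the program that computed FPKM, its annotation and its use of strand are not given in the sources used here. The table holds 28 symbols turned into calendar dates, kept as they stand.

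From these values log2(FPKM + 1) was computed, which understates changes of low genes. Genes averaging 1 FPKM or more over the 6 libraries, 11400 in all, entered limma 3.58.1 under R 4.3.3 (lmFit, eBayes with trend, two-sided, Benjamini-Hochberg, threshold 0.05). One fit had the line as covariate; another had 4 group means, with lone controls assumed to vary like the sgRNA groups. Libraries of a group differ in guide, so p-values of the fit with 4 group means measure the spread between guides. With the line as covariate, the spread also holds any disagreement of the sgRNA difference between the lines. Fits and fragment recovery were tested on simulated data.

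Genes named are the listed RNAs, the genes called in each partner list or otherwise its 2 most abundant, the 5 most similar profiles, neighbours and NR4A1. The members and lists were chosen with earlier results of these data known. The labels number the guides alike in both lines, and whether a number stands for the same guide in each was not tested. Same-numbered guides' deviations correlated at 0.0998 across genes, which cannot settle this, since guides that are the same can still deviate differently. The main fits did not pair the guides. When they were paired by number, RMRP, RPPH1 and RNU11 were not called, with values given below. The submitters' p-values, counts and reads were not used. After the values were seen, profiles without VTRNA1-1 and small RNAs above 0 in both controls were added.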

Additional observations from a re-analysis of the deposited data

Results flagged for a closer look

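VTRNA2-1, a polymerase III RNA once grouped with the vault RNAs, had a fitted sgRNA difference that was not alike in the lines, but it passed the filter on low values through the Rec-1 sgRNA libraries alone. The difference in Rec-1 minus that in Jeko was 6.48 on the log2(FPKM + 1) scale (limma adjusted p 0.00447). It was listed at 0 in the Jeko control, in Jeko sgRNA 1 and 2 and in the Rec-1 control, and at 82.0 and 94.8 FPKM in Rec-1 sgRNA 1 and 2, the libraries that also stood apart in CCND1 and CD3D. Without Jeko sgRNA 2 the limma adjusted p was 0.0511. A fitted difference against libraries at 0 depends on the pseudocount and is no bound, a listed 0 can be a failed estimate, and each line has 1 control.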

How the results depend on the processing

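In the comparison of sgRNA with control the 28 calls became 12 with no filter on low values, and 11 to 2180 when each library was left out in turn (2180 without the Jeko control, 51 without the Rec-1 control). Under a replicate block by guide number there were 9, and RMRP, RPPH1 and RNU11 had limma adjusted p of 0.120, 0.181 and 0.109. The 791 genes whose sgRNA difference differed between the lines became 318 with a mean of at least 5 FPKM and 75 to 454 with a library left out, and the 2947 between the lines' sgRNA libraries became 1549 and 803 to 2940. The 50 calls in Jeko stayed between 40 and 65.

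RMRP and RPPH1 stayed higher with the sgRNA under each of 13 alternatives (4.27 to 4.85 and 3.94 to 4.98), but each lost its call under 7, among them leaving out Jeko sgRNA 1, the Rec-1 control or either Rec-1 sgRNA library, and for RPPH1 the TPM scale (limma adjusted p 0.0534). The difference of RMRP between the lines changed sign on the TPM scale (0.33) and ran from -0.72 to 0.64 with a library left out. TERC was called without the Jeko control (0.82, limma adjusted p 0.0324). RNU11 and HIST1H1D each lost their Jeko call with no filter (limma adjusted p 0.120 and 0.0634). Both also lost it with any sgRNA library of either line left out, Rec-1 included, since the guides of both lines give the spread. Between the lines' sgRNA libraries RPPH1 lost its call under 8 of 13 alternatives, among them no filter (limma adjusted p 0.0916), a mean of at least 5 FPKM (0.0567) and a pseudocount of 0.1 (0.0514).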
